A study of Homo sapiens with 48 samples.

Results

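The 10 enzymes that make, elongate and desaturate fatty acids, FASN, ACLY, ACACA, ACACB, SCD, ELOVL5, ELOVL6, ELOVL7, FADS1 and FADS2, were followed by RNA-Seq through every culture of a study of the Mediator kinases CDK8 and CDK19 in prostate cancer cells. The rule for membership is the gene symbol and uses no measured value, although the family was picked with earlier results of these data known. The members are 10 of the 61815 genes in the count table. All 10 were among the 20009 genes with enough counts to be tested. The family split in its response. Under the CDK8/19 inhibitor SNX631 the elongases ELOVL5 and ELOVL6 were higher in each of 6 settings with an active kinase (by 0.30 to 0.66 and 0.20 to 0.56 on the log2 scale) and not detectably higher in the 2 lines whose kinase was dead, although 3 of the ELOVL6 values rest on single libraries. FASN, ACLY, FADS1 and FADS2 were lower in 3 or 4 of the same 6 settings at an FDR under 0.05, never by 1.5-fold. Of all tested genes, 13.5% to 26.5% passed that FDR in these settings. FADS2 also passed as lower in a kinase-dead line (FDR = 0.0269). In androgen-depleted serum 6 of the 10 enzymes fell in parental cells under vehicle, where 10.9% of all tested genes were called (FDR under 0.01 and over 1.5-fold). In the luciferase subline ELOVL5 alone was called, under SNX631, where 1.51% of all genes were called (1.49% under vehicle).

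The study used 22Rv1, an established human castration-resistant prostate cancer line, and derivatives of it, in 16 groups of 3 libraries. Parental cells are called Rv1-WT, and Rv1-Luc are parental cells transduced with a lentivirus that carries firefly luciferase. Both were grown in complete serum (fetal bovine serum, FBS) or in charcoal-stripped serum (CSS), from which androgens and other small lipophilic molecules are removed. The other derivatives, grown in FBS, all lack both endogenous kinases (a CRISPR/Cas9 double knockout, dKO) and re-express human wild-type CDK8 (dKO-8), wild-type CDK19 (dKO-19), or the D173A kinase-dead mutant of CDK8 (dKO-8M) or of CDK19 (dKO-19M). Each line and serum received 500 nM SNX631 or 0.1% DMSO vehicle for 72 hours. Cells for CSS had also been passaged once in CSS beforehand, so the serum comparison includes that passage. Each derivative is a single transduced line, and dKO-8 and dKO-8M were made from a dKO line that also carries an empty lentiviral vector. A dKO line with no re-expressed kinase was not analysed here. The labels number the 3 libraries of a group without saying how they were grown, and the study's methods call RNA-Seq replicates biological, so the tests measure the spread between these libraries.

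Library totals ran from 13.2 to 31.5 M counts (M, megacounts), lowest in Rv1-WT (13.2 to 18.2 M). Luciferase counts were 10231 to 13996 in Rv1-Luc libraries and 0 in all others. CDK8 transcript was 68.7 ± 2.43 CPM (SD, n = 3) in vehicle-treated dKO-8 and 122.6 ± 3.95 CPM in dKO-8M against 26.8 ± 0.472 CPM in Rv1-WT in FBS, and CDK19 was 510.4 ± 7.84 CPM in dKO-19 and 332 ± 29.6 CPM in dKO-19M against 149 ± 1.07 CPM. CPM are counts relative to TMM-scaled library size. The edited endogenous genes still gave reads (27.7 ± 1.42 CPM of CDK8 in vehicle-treated dKO-19), so transcript level does not test the knockout itself. It does not give the protein level either. In the paper's Western blots dKO-8 had less CDK8 protein than parental cells, whereas dKO-19 and dKO-19M had much more CDK19. HOXB13, KRT8 and KRT18, markers of luminal prostate epithelium, were at 173.4 CPM or more in every library, whereas KLK3 was 0.409 to 11.6 CPM. The summed markers of basal cells, leukocytes, endothelium and adipocytes each stayed at or below 1.11 CPM, and the fibroblast sum of 3.33 to 11.3 CPM was mostly COL1A1 (2.54 to 10.8 CPM). Replicate 1 of dKO-19M vehicle stood apart from its replicates (over all genes, its chi-square per degree of freedom was 17.7 to replicate 2 and 17 to replicate 3, which differed from each other by 1.45).

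De novo fatty acid synthesis begins with citrate. ACLY splits cytosolic citrate to acetyl-CoA, the acetyl-CoA carboxylases ACACA and ACACB make malonyl-CoA from it, and fatty acid synthase (FASN) joins malonyl units into palmitate. ACACA supplies malonyl-CoA for synthesis in the cytosol, whereas ACACB sits at the outer mitochondrial membrane, where malonyl-CoA restrains fatty acid oxidation. SCD places the first double bond in stearate and palmitate. ELOVL6 extends palmitate to stearate, ELOVL5 extends polyunsaturated and some monounsaturated chains, ELOVL7 extends long saturated and unsaturated chains, and FADS2 and FADS1 are the delta-6 and delta-5 desaturases of polyunsaturated fatty acid synthesis. Many of these genes are classical targets of the SREBP transcription factors, and prostate cancers are known for lipogenic gene expression under androgen control.

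Promoters of the members were read for letters that such regulators are known to use. RefSeq promoter windows on GRCh38.p14, from 250 bases before to 50 after an annotated start, were found for 9 of the 10 members (14 windows); FASN was not among them. The 4 windows shown belong to the elongases that were higher under SNX631 (ELOVL5 and ELOVL6) and to the desaturases that were called on androgen depletion (SCD and FADS2). Capitals mark CCAAT, the E-box CACGTG and the GC box GGGCGG, on either strand, and no match overlaps another of a different kind.
ELOVL5, chr6:53348901-53349200, minus strand: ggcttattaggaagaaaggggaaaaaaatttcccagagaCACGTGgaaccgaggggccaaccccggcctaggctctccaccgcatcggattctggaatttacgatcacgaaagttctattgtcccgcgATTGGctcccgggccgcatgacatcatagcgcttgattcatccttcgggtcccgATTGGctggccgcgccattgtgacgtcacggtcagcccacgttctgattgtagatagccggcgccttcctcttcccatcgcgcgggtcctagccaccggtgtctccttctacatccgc
ELOVL6, chr4:110198566-110198865, minus strand: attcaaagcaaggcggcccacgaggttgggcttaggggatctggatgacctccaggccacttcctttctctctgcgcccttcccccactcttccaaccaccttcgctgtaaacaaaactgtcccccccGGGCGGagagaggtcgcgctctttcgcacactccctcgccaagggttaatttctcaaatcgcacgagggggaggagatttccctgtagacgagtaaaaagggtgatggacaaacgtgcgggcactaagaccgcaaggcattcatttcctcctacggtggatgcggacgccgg
SCD, chr10:100346983-100347282, plus strand: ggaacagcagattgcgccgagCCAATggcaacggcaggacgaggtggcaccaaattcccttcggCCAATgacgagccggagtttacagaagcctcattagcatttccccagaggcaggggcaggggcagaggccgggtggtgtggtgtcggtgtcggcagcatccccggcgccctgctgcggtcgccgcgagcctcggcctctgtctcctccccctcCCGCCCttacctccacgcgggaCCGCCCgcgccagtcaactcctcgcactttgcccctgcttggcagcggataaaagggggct
FADS2 (second window), chr11:61816154-61816453, plus strand: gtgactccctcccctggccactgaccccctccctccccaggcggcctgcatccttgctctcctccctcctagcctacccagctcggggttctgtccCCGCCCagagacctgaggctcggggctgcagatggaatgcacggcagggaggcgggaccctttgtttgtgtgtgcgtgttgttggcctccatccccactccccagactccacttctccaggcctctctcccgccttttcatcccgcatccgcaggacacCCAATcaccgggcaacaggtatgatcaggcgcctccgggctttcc

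ELOVL5 held 2 CCAAT matches and 1 E-box, SCD held 2 CCAAT matches and 2 GC boxes, the second FADS2 window held 1 CCAAT match and 1 GC box, and ELOVL6 held 1 GC box and no CCAAT. These letters are common: of 35114 human windows of this length, 34.6% held CCAAT, 44.95% GGGCGG and 7.26% CACGTG. Among the members the E-box was found in the ELOVL5 window alone. The sterol element TCACNCCAC (1.13% of windows) and the androgen half-site AGAACA (14.8% of windows) each occurred in 0 of the 14 member windows. A match describes these letters only, and its absence says nothing of what binds elsewhere. ELOVL5 and ELOVL6, both higher under SNX631, shared none of the 5 motifs in these windows.

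The 10 genes lie on 7 chromosomes. FASN (ENSG00000169710.9, chr17:82078333-82098332), ACLY (ENSG00000131473.17, chr17:41866908-41930542) and ACACA (ENSG00000278540.5, chr17:37084988-37406818) are on the minus strand of chromosome 17 in GRCh38 as annotated by GENCODE, and ACACB (ENSG00000076555.16) is at chr12:109116595-109268226. SCD (ENSG00000099194.6) is at chr10:100347124-100364834, ELOVL5 (ENSG00000012660.14) at chr6:53267398-53349179, ELOVL6 (ENSG00000170522.10) at chr4:110045846-110199199 and ELOVL7 (ENSG00000164181.14) at chr5:60751791-60844389.

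The family spanned a wide range of expression. Levels are compared between genes as RPKM, the CPM per kilobase of all annotated exons of a gene in GENCODE release 29. In vehicle-treated Rv1-WT in FBS, SCD was the highest at 906.5 ± 23.4 RPKM (SD, n = 3), followed by FASN at 182.4 ± 13.1 RPKM and ACLY at 150.3 ± 5.13 RPKM. ELOVL5 came next at 66.6 ± 1.66 RPKM, ahead of FADS1 at 32.7 ± 0.786 RPKM and ACACA at 22.9 ± 1.23 RPKM. ELOVL6 (19.3 ± 0.966 RPKM), FADS2 (13 ± 0.136 RPKM) and ELOVL7 (6.7 ± 0.363 RPKM) were lower, and ACACB was the lowest at 1.55 ± 0.0475 RPKM. The libraries of neighbouring genes in this order did not overlap, and the closest pair was ACACA (lowest library 21.7 RPKM) above ELOVL6 (highest 20.4 RPKM). Over the 16 group means, SCD ranged from 471.1 to 930.1 RPKM, FASN from 98 to 317.9 RPKM and ACACB from 1.32 to 1.88 RPKM. The 10 genes together took 0.467% to 0.922% of all counts. The exon lengths include every annotated transcript, so RPKM are lower for a gene with long rarely used exons. The annotated span of FADS1 lies within that of FADS2, on the opposite strand of chromosome 11 (chr11:61799625-61829318 and chr11:61792980-61867354 on GRCh38) and share 490 bases of exon, and whether the counting used strand is not stated in the sources used here. Counts were fractional, a sign of shared reads, in 52.1% of libraries for FADS2, 41.7% for ACACB and 37.5% for FADS1, against 0 of the libraries for ELOVL6 and 8.33% for SCD.

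**Figure D1:**
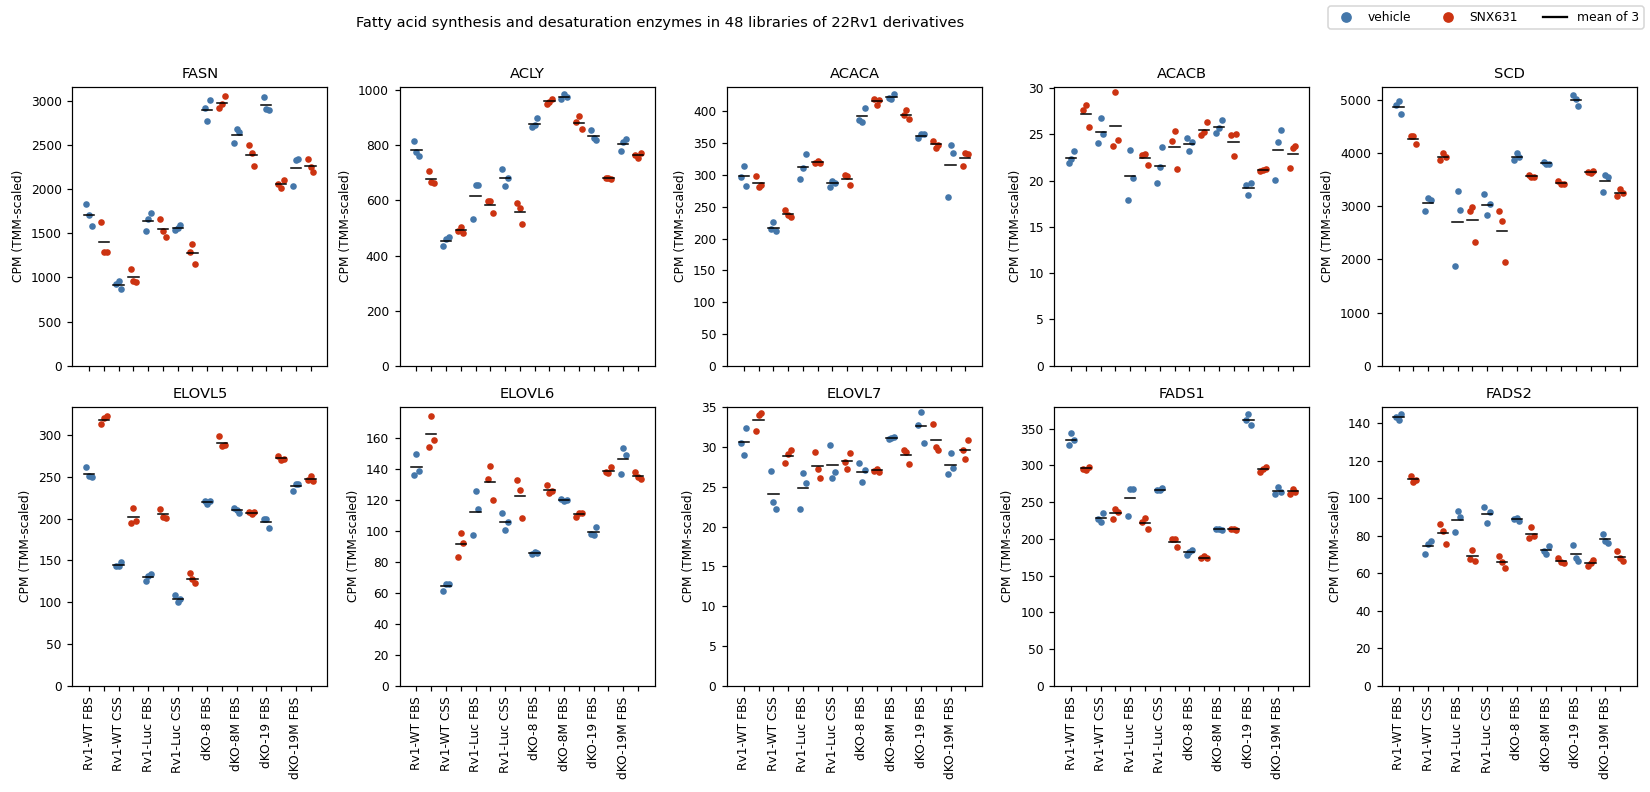
Level of each enzyme in TMM-scaled CPM (y axis, from 0, own scale for each gene) in the 48 libraries, by line and serum (x axis); points are libraries (blue vehicle, red SNX631, which is plotted to the right of its vehicle group) and bars are means of 3. ELOVL5 was higher under SNX631 in the first 4 pairs and in dKO-8 and dKO-19, and FASN was highest in the dKO lines.

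The first question was what SNX631 did to these genes where a Mediator kinase was active. In 60 tests (10 genes in 6 settings), 1 passed both limits used for a call, an FDR under 0.01 and a fold change over 1.5: ELOVL5 rose in Rv1-Luc in FBS. With an FDR under 0.05 and no limit on the fold change, 30 of the 60 tests passed, 16 of them higher under SNX631 and 14 lower. Of all genes, 1.71% to 4.23% were called and 13.5% to 26.5% passed in these settings. The 2 kinase-dead lines gave 1 such test of 20, where 0.485% (dKO-8M) and 2.41% (dKO-19M) of all genes passed. Below, a gene is said to rise or fall only where it was called and is otherwise given as higher or lower with its FDR. The FDR is that of edgeR's quasi-likelihood test over all 20009 genes, and an SE follows each log2 difference. In RNA from whole cultures, fewer cells of a kind and less RNA per cell cannot be told apart.

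ELOVL5 was higher in every active setting, although by unequal amounts. In Rv1-Luc in FBS its vehicle libraries held 125.4, 130.7 and 133.1 CPM and its SNX631 libraries 211.5, 202.1 and 201.1 CPM, a 1.58-fold rise (log2 fold change 0.66 ± 0.0371 SE, FDR = 6.46e-22). In Rv1-WT in FBS the values were 261.1, 251.2 and 249.3 CPM under vehicle and 312.7, 320.2 and 322.5 CPM under SNX631, a log2 difference of 0.33 ± 0.0366. The treated libraries lay above all vehicle libraries in both lines. For CSS the log2 differences were 0.48 ± 0.0378 (Rv1-WT) and 0.30 ± 0.0383 (Rv1-Luc). In the rescued lines it was 0.41 ± 0.0362 in dKO-8 and 0.48 ± 0.0365 in dKO-19. All 6 had an FDR of 6.15e-09 or lower, and in none did the groups overlap.

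ELOVL6, which makes stearate from palmitate, was also higher in all 6 active settings, by 0.20 to 0.56 on the log2 scale. The response was clearest in dKO-8, where vehicle libraries held 85.2, 86.2 and 85.5 CPM and SNX631 libraries 129.2, 124.5 and 125.6 CPM (log2 difference 0.56 ± 0.0661, FDR = 1.01e-08). In dKO-19 the values were 97.8, 97.2 and 102.2 CPM against 137.8, 137.4 and 141 CPM (0.49 ± 0.0656, FDR = 1.29e-07). The treated and vehicle libraries were well separated in both rescued lines. In Rv1-WT in CSS, ELOVL6 went from 61.4, 65.9 and 65.7 CPM to 83.2, 98.3 and 92.2 CPM (0.51 ± 0.071, FDR = 2.42e-07). In the other settings the difference was smaller, at 0.20 ± 0.0657 for Rv1-WT in FBS (FDR = 0.0319), 0.23 ± 0.0644 in Rv1-Luc in FBS (FDR = 0.00721) and 0.21 ± 0.0653 in Rv1-Luc in CSS (FDR = 0.0153), and in both Rv1-Luc sera the libraries overlapped. These 3 results depended on single libraries. The FDR reached 0.199 for Rv1-WT in FBS without SNX631 replicate 2 (log2 difference 0.15), 0.125 in Rv1-Luc in FBS without vehicle replicate 1 (0.14) and 0.145 in Rv1-Luc in CSS without SNX631 replicate 1 (0.15), and others of their libraries also took it past 0.05.

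Both elongases were then compared between active and kinase-dead lines. ELOVL5 under SNX631 was 207.3, 205.8 and 208 CPM in dKO-8M against 212.7, 210.5 and 206.8 CPM under vehicle, and 246.3, 250.4 and 244.6 CPM in dKO-19M against 232.7, 241.8 and 240.9 CPM. Their log2 differences were -0.02 (95% interval -0.09 to 0.05) and 0.05 (-0.02 to 0.12). ELOVL6 was 108.7, 111.7 and 111.4 CPM in dKO-8M against 120.3, 119.4 and 119.6 CPM, and 137.5, 134.7 and 133.4 CPM in dKO-19M against 136.3, 153.6 and 148.8 CPM. The point estimates, -0.12 and -0.11, had the opposite sign to those of the active lines, with an FDR of 0.606 and 0.416. The difference of the SNX631 effect between active and dead kinase was itself called for ELOVL6, at 0.68 ± 0.0928 for CDK8 (FDR = 1.32e-06) and 0.60 ± 0.0915 for CDK19 (FDR = 4.87e-06), and for ELOVL5 it was 0.43 ± 0.0514 (FDR = 1.6e-08) and 0.42 ± 0.0513 (FDR = 5.94e-09). Without replicate 2 of dKO-19M vehicle, the highest library of its group, the ELOVL6 difference for CDK19 was 0.57 and no longer past 1.5-fold.

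ELOVL7, the third elongase, had no such pattern. Its level was 22.2 to 34.5 CPM in all 48 libraries, and its log2 difference under SNX631 ran from -0.08 in dKO-19 to 0.26 ± 0.07 in Rv1-WT in CSS, the one active setting with an FDR under 0.05 (0.00309). There the SNX631 libraries held 28.1, 29.2 and 29.6 CPM against 27.1, 23.1 and 22.2 CPM under vehicle.

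The effect on the genes of the synthesis chain varied with line and serum. FASN was most affected in dKO-19, where vehicle libraries held 3041, 2910 and 2894 CPM and SNX631 libraries 2058, 2014 and 2107 CPM (log2 difference -0.52 ± 0.0714, FDR = 5.83e-07). In dKO-8 it was 2918, 2767 and 3010 CPM against 2915, 2965 and 3050 CPM (0.04, FDR = 0.803). The groups were widely apart in the first line and overlapped in the second, and the effect in dKO-19 minus that in dKO-8 was -0.56 ± 0.101 (FDR = 0.000332). FASN was also lower in Rv1-WT in FBS (1829, 1712 and 1583 CPM against 1623, 1286 and 1284 CPM, overlapping, -0.29 ± 0.0718, FDR = 0.00414, and 0.218 with only these libraries in the fit) and in Rv1-Luc in CSS (1543, 1555 and 1590 CPM against 1293, 1374 and 1150 CPM, -0.30 ± 0.0716, FDR = 0.00182). It did not pass in Rv1-WT in CSS (0.13, FDR = 0.199) or Rv1-Luc in FBS (-0.08, FDR = 0.492).

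ACLY, which feeds acetyl-CoA to FASN, followed the same settings. It was lower in dKO-19 (856.4, 825.2 and 818.3 CPM against 682.8, 679.6 and 677.8 CPM, log2 difference -0.29 ± 0.0471, FDR = 1.79e-06), in Rv1-Luc in CSS (-0.29 ± 0.0472, FDR = 2.48e-06) and in Rv1-WT in FBS (-0.21 ± 0.0474, FDR = 0.000999). In dKO-8 it was 866.2, 872.8 and 897.8 CPM under vehicle and 951, 958.9 and 968 CPM under SNX631 (0.13 ± 0.0468, FDR = 0.063). The SNX631 effect on ACLY differed between dKO-19 and dKO-8 by -0.42 ± 0.0664 (FDR = 9.55e-06). The carboxylases responded less. ACACA passed in Rv1-WT in CSS alone (0.13 ± 0.0509, FDR = 0.0448) and ACACB in Rv1-WT in FBS alone (0.27 ± 0.0842, FDR = 0.0197), where it went from 21.9, 22.4 and 23.2 CPM to 27.6, 28.2 and 25.8 CPM. Leaving out 1 library took the FDR to as much as 0.153 for ACACA (without vehicle replicate 3) and 0.0837 for ACACB (without vehicle replicate 1).

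SCD, the stearoyl-CoA desaturase, was lower in dKO-19 under SNX631 (5080, 5008 and 4874 CPM against 3640, 3622 and 3660 CPM, -0.45 ± 0.115, FDR = 0.00383) and higher in Rv1-WT in CSS (2901, 3156 and 3115 CPM against 3867, 4003 and 3916 CPM, 0.36 ± 0.115, FDR = 0.0179). The libraries of each of these comparisons were fully separated, in opposite directions, and the Rv1-WT value had an FDR of 0.0779 without vehicle replicate 1. SCD had the largest SE of the family in these tests, and in Rv1-Luc in FBS its vehicle libraries were themselves spread from 1879 CPM in replicate 1 to 3282 CPM in replicate 2. SNX631 libraries of that setting held 2904, 2980 and 2332 CPM.

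The polyunsaturated desaturases were lower in the parental line in FBS and in the luciferase subline in both sera, but not in the parental line in CSS (FADS2 0.13 ± 0.0504, FDR = 0.0523, and FADS1 0.04 ± 0.0383, FDR = 0.47). FADS2 in Rv1-WT in FBS held 143.2, 141.8 and 144.8 CPM under vehicle and 112, 108.7 and 109.7 CPM under SNX631 (-0.38 ± 0.048, FDR = 1.1e-08), and it was lower in Rv1-Luc in FBS (-0.36 ± 0.0483, FDR = 3.33e-08) and in CSS (-0.47 ± 0.0489, FDR = 1.27e-11). FADS1 was lower in these 3 settings, most in Rv1-Luc in CSS, from 265.9, 266.2 and 268.5 CPM to 199.8, 199.9 and 188.6 CPM (-0.44 ± 0.0379, FDR = 1.69e-14). These groups did not overlap. In dKO-19, FADS1 was lower (-0.30 ± 0.0372, FDR = 4.96e-09) while FADS2 did not pass (-0.10, FDR = 0.174), and in dKO-8 neither passed (FADS1 -0.06, FDR = 0.385, FADS2 -0.13, FDR = 0.0648). FADS2 was the single member that passed in a kinase-dead line, in dKO-19M, from 80.9, 77.4 and 76.1 CPM to 71.8, 68 and 66.8 CPM (-0.18 ± 0.049, FDR = 0.0269, and 0.175 without SNX631 replicate 3). The SNX631 effect on FADS2 in dKO-19 minus that in dKO-19M was 0.08 ± 0.0702 (FDR = 0.542).

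**Figure D2:**
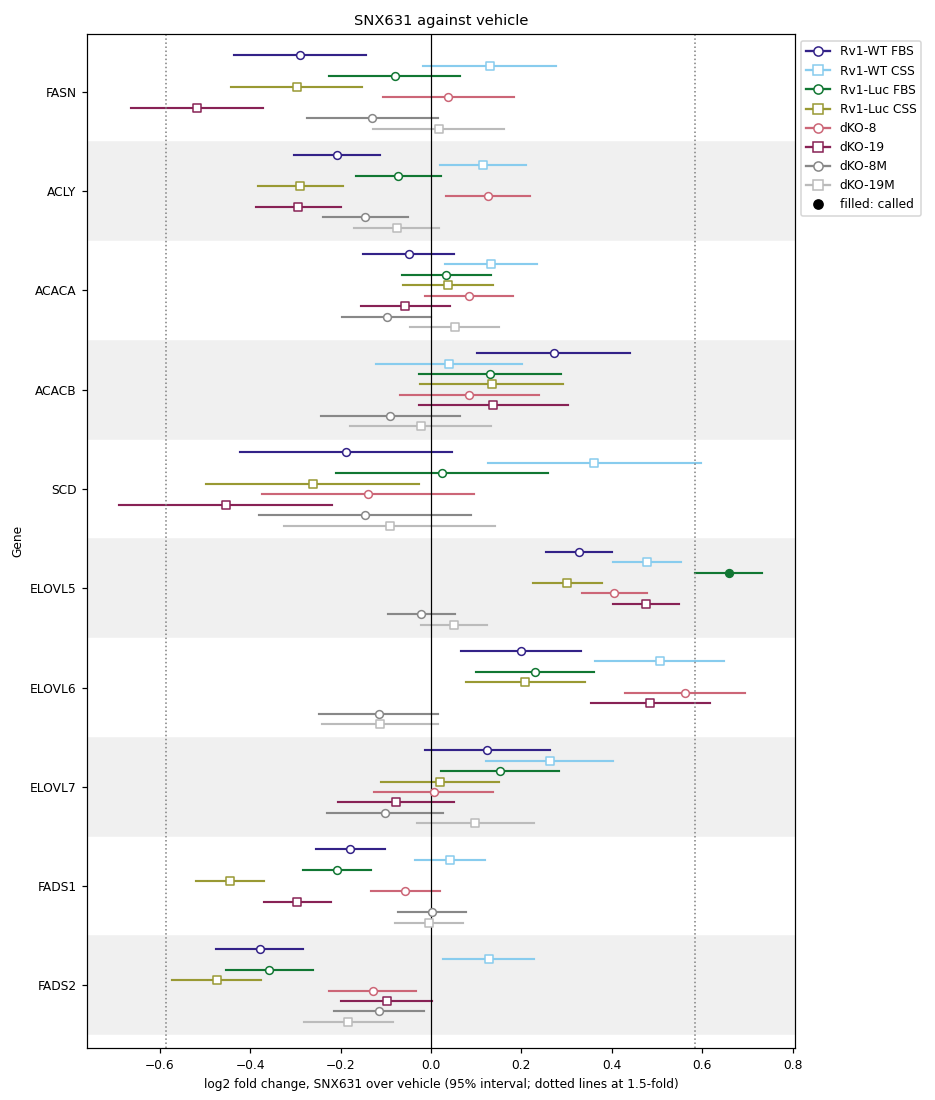
Log2 fold change of SNX631 over vehicle (x axis) for each enzyme (y axis) in the 8 line and serum settings, with 95% intervals from the fit; filled symbols were called and dotted lines stand at 1.5-fold. ELOVL5 (0.30 to 0.66) and ELOVL6 (0.20 to 0.56) lie right of 0 in the 6 active settings and within 0.12 of 0 in dKO-8M and dKO-19M.

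The counts of members are read against all genes. In Rv1-WT in FBS, 0 members were called and 7 passed an FDR of 0.05, where 2.39% of the 20009 genes were called and 14.5% passed. In Rv1-WT in CSS, 0 were called and 5 passed, all higher, against 4.23% and 26.5% of all genes. In Rv1-Luc in FBS, 1 was called and 4 passed, against 3.67% and 20.3%. In Rv1-Luc in CSS, 0 were called and 6 passed, against 4.06% and 23.9%. In dKO-8, 0 were called and 2 passed, against 1.71% and 13.5%, and in dKO-19, 0 were called and 6 passed, against 3.41% and 20.6%. The share of members past the FDR limit was above that of all genes in each of the 6 settings, least so in dKO-8, and at 10 genes a share called near the background would be 0 or 1. The share of all genes also covers genes with few counts, in which small changes are harder to detect. Genes matched to the members in level were not compared. In the kinase-dead lines few genes of any kind responded: 0.015% were called and 0.485% passed in dKO-8M, with 0 and 0 of the members, and 0.09% and 2.41% in dKO-19M, with 0 and 1. Over the 10 members the median log2 difference of Rv1-WT was -0.11 with FBS and 0.13 with CSS, beside a median of 0.00 over all genes in both.

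Whether serum changed the SNX631 effect was tested directly. In Rv1-WT the effect in CSS minus that in FBS passed an FDR of 0.05 for 4 members and was called for 0, where 3.13% of all genes passed and 0.295% were called. The 4 were FADS2 (0.51 ± 0.0696, FDR = 1.13e-06), FASN (0.42 ± 0.102, FDR = 0.0137), ACLY (0.32 ± 0.0674, FDR = 0.00188) and FADS1 (0.22 ± 0.0538, FDR = 0.00984), each lower under SNX631 in FBS and not in CSS. For FASN the FDR was 0.178 with only these 4 groups in the fit. SCD had the largest such difference, 0.55 ± 0.163, without passing (FDR = 0.0584). In Rv1-Luc the sign was the other way for the 2 that passed, ELOVL5 (-0.36 ± 0.0533, FDR = 2.36e-05) and FADS1 (-0.24 ± 0.0533, FDR = 0.0175), with 0 called, against 0.51% and 0.08% of all genes. The FADS1 value had an FDR of 0.104 without FBS vehicle replicate 1 and 0.344 with only these 4 groups in the fit. In FBS the SNX631 effect of Rv1-Luc minus that of Rv1-WT passed for ELOVL5 alone (0.33 ± 0.0521, FDR = 2.36e-05) and was called for 0, against 1.48% and 0.175%.

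Active and dead kinase lines were compared in the same way. The SNX631 effect in dKO-8 minus that in dKO-8M was called for 1 member, ELOVL6, and passed for 3 (ELOVL6, ELOVL5 and ACLY, all higher in dKO-8), where 0.905% of genes were called and 6.2% passed. For dKO-19 minus dKO-19M, 1 was called, again ELOVL6, and 5 passed, against 2.07% and 9.87%. The other 4 were ELOVL5, FASN (-0.53 ± 0.101, FDR = 0.000269), FADS1 (-0.29 ± 0.0528, FDR = 4.65e-05) and ACLY (-0.22 ± 0.0665, FDR = 0.0242, and 0.117 with library size as the only scaling). For dKO-19 minus dKO-8, 0 were called and 3 passed, FASN, ACLY and FADS1 (-0.24 ± 0.0534, FDR = 0.0024), against 0.885% and 4.77%. These comparisons share the dKO-8 or dKO-19 libraries, so they are not independent of each other. The lines compared also differ in the level of the re-expressed kinase, whose part in these differences cannot be told apart.

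The second question was how the family responded to androgen-depleted serum. Charcoal stripping removes androgens and other small lipophilic molecules together, and their separate parts were not tested. In vehicle-treated Rv1-WT, 6 of the 10 members fell in CSS relative to FBS and 9 passed an FDR of 0.05, all lower, where 10.9% of all genes were called and 44.9% passed. The median over the members was -0.73 on the log2 scale, beside 0.01 over all genes. ELOVL6 fell by 54.4%, from 135.7, 149.1 and 138.6 CPM in FBS to 61.4, 65.9 and 65.7 CPM in CSS (log2 fold change -1.13 ± 0.0699, FDR = 3.6e-18). FADS2 went from 143.2, 141.8 and 144.8 CPM to 70.3, 75.7 and 77.5 CPM (-0.94 ± 0.0492, FDR = 7.43e-24). FASN went from 1829, 1712 and 1583 CPM to 920.6, 960.1 and 873 CPM (-0.90 ± 0.0724, FDR = 5.57e-13). These are the 3 members that changed most, and no CSS library reached the lowest FBS library.

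ELOVL5 fell from 261.1, 251.2 and 249.3 CPM to 143.5, 142.9 and 147.9 CPM (-0.81 ± 0.0377, FDR = 4.99e-26), and ACLY from 813.8, 775.8 and 762.1 CPM to 433.3, 459.8 and 468.1 CPM (-0.79 ± 0.0479, FDR = 4.84e-21). SCD, the most abundant transcript of the family, fell from 4893, 4967 and 4722 CPM to 2901, 3156 and 3115 CPM (-0.67 ± 0.116, FDR = 1.08e-05). These groups, too, were separated in every library. FADS1 (-0.55 ± 0.0381, FDR = 7.8e-19), ACACA (-0.45 ± 0.0508, FDR = 4.1e-11) and ELOVL7 (-0.35 ± 0.0707, FDR = 4.29e-05) were lower by less than 1.5-fold. ACACB was the exception at 0.17 ± 0.0839 (FDR = 0.106), with 21.9, 22.4 and 23.2 CPM in FBS and 24, 26.7 and 25 CPM in CSS.

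Under SNX631 the serum effect in Rv1-WT was called for 2 members, ELOVL6 (-0.83 ± 0.0671, FDR = 4.83e-14) and ELOVL5 (-0.66 ± 0.0368, FDR = 2.69e-22), and 8 passed an FDR of 0.05, against 7.83% and 40.6% of all genes. FASN (-0.48 ± 0.0721), ACLY (-0.47 ± 0.0477), FADS2 (-0.44 ± 0.0494) and FADS1 (-0.33 ± 0.0381) were lower, by less than under vehicle, and SCD no longer passed (-0.12 ± 0.115, FDR = 0.448). For the first 4 of these genes that reduction is the difference tested above.

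Rv1-Luc responded far less. Under vehicle, 0 members were called and 2 passed, where 1.49% of all genes were called and 14% passed. ELOVL5 was lower in CSS, with 108.9, 99.7 and 103.3 CPM against 125.4, 130.7 and 133.1 CPM in FBS (-0.32 ± 0.0381, FDR = 4.75e-09), and ACLY was higher (0.15 ± 0.0471, FDR = 0.0199, and 0.459 without FBS vehicle replicate 1). FASN held 1527, 1658 and 1727 CPM in FBS and 1543, 1555 and 1590 CPM in CSS (-0.07, 95% interval -0.21 to 0.08), and ELOVL6 97.3, 125.7 and 113.7 CPM and 111.7, 100.5 and 105.4 CPM (-0.08, interval -0.21 to 0.05). Both pairs of groups overlapped, and both intervals leave out changes of the size seen in Rv1-WT. Under SNX631, 1 member was called, ELOVL5, which fell from 211.5, 202.1 and 201.1 CPM to 134.4, 128.1 and 122.3 CPM (-0.68 ± 0.0373, FDR = 8.93e-22), and 3 passed, against 1.51% and 12.7% of all genes. The other 2 were FASN (-0.28 ± 0.0716, FDR = 0.00578, and 0.0575 without CSS SNX631 replicate 3) and FADS1 (-0.18 ± 0.0379, FDR = 0.000689).

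The serum effect under vehicle in Rv1-Luc minus that in Rv1-WT was called for 6 members and passed for 9, where 8.65% of all genes were called and 34.1% passed. It was 1.05 ± 0.0955 for ELOVL6 (FDR = 3.14e-12), 1.00 ± 0.0684 for FADS2 (FDR = 4.81e-18), 0.94 ± 0.0671 for ACLY (FDR = 2.03e-17), 0.84 ± 0.163 for SCD (FDR = 0.000105), 0.83 ± 0.102 for FASN (FDR = 2.99e-08) and 0.62 ± 0.0534 for FADS1 (FDR = 2.72e-14). ELOVL7 (0.51 ± 0.0964), ELOVL5 (0.49 ± 0.0536) and ACACA (0.33 ± 0.0708) passed below 1.5-fold, and ACACB did not pass (-0.09, FDR = 0.581). ELOVL5 was lower in CSS in both lines, by different amounts. The value for FADS1 no longer passed 1.5-fold without replicate 1 of Rv1-Luc FBS vehicle (0.55), while that of ELOVL7 did without replicate 1 of Rv1-WT CSS vehicle (0.61), and SCD was not called with only these 4 groups in the fit (0.81).

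**Figure D3:**
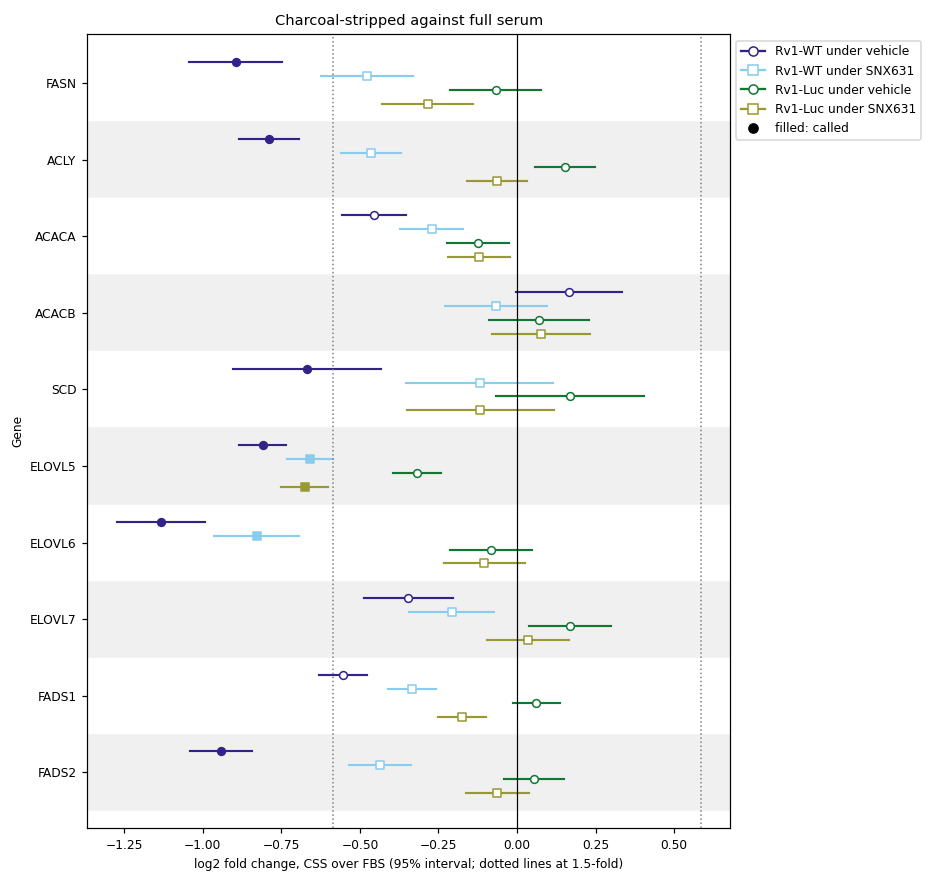
Log2 fold change of CSS over FBS (x axis) for each enzyme (y axis) in Rv1-WT and Rv1-Luc under vehicle and SNX631, with 95% intervals from the fit; filled symbols were called and dotted lines stand at 1.5-fold. The Rv1-WT vehicle values of 9 genes lie between -1.13 and -0.35 and that of ACACB at 0.17, while the Rv1-Luc vehicle values lie between -0.32 and 0.17.

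The lines also differed before treatment. In FBS under vehicle, 3 members were lower in Rv1-Luc than in Rv1-WT past both limits and 7 passed an FDR of 0.05, where 17.8% of all genes were called and 52.5% passed. ELOVL5 held 125.4, 130.7 and 133.1 CPM in Rv1-Luc against 261.1, 251.2 and 249.3 CPM in Rv1-WT (log2 fold change -0.97 ± 0.0375, FDR = 3.76e-30). SCD held 1879, 3282 and 2920 CPM against 4893, 4967 and 4722 CPM (-0.85 ± 0.116, FDR = 1.61e-07), and FADS2 82.1, 93.2 and 90.2 CPM against 143.2, 141.8 and 144.8 CPM (-0.70 ± 0.0476, FDR = 5.66e-19). The Rv1-Luc libraries lay below those of Rv1-WT in each. FASN (-0.06, FDR = 0.495), ACACA (0.07, FDR = 0.242) and ACACB (-0.13, FDR = 0.175) did not pass. SCD was not called with only these 2 groups in the fit (-0.82), and leaving out any 1 library changed none of the 3 calls. Rv1-Luc FBS vehicle replicate 1, lowest for SCD and FADS2, differed most from its replicates over all genes (chi-square per degree of freedom 9.69 and 5.14, against 3.2 between the other two).

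Kinase-dead and kinase-active lines were compared under vehicle, where the lines differ in the transgene's mutation and in their separate derivation. In dKO-8M against dKO-8, 0 members were called and 5 passed, against 7.03% and 30.5% of all genes. In dKO-19M against dKO-19, 0 were called and 9 passed, against 7.6% and 33.3%. ELOVL6 was higher in both kinase-dead lines, at 120.3, 119.4 and 119.6 CPM in dKO-8M against 85.2, 86.2 and 85.5 CPM in dKO-8 (0.48 ± 0.0663, FDR = 8.91e-08), and at 136.3, 153.6 and 148.8 CPM in dKO-19M against 97.8, 97.2 and 102.2 CPM in dKO-19 (0.56 ± 0.0649, FDR = 1.51e-09). The direction is that of SNX631 in the active lines, and the libraries did not overlap in either pair. ELOVL5 was higher in dKO-19M than in dKO-19 (0.29 ± 0.0364, FDR = 3.21e-09) but not in dKO-8M against dKO-8 (-0.06, FDR = 0.195). FASN (-0.40 ± 0.0713, FDR = 2.61e-05), SCD (-0.53 ± 0.115, FDR = 0.000466) and FADS1 (-0.45 ± 0.0372, FDR = 2.38e-15) were lower in the kinase-dead line of the CDK19 pair. In the CDK8 pair FADS1 was higher (0.23 ± 0.0381, FDR = 2.3e-06), FADS2 was lower (-0.30 ± 0.0486, FDR = 1.25e-06), and neither FASN (-0.15, FDR = 0.118) nor SCD (-0.05, FDR = 0.817) passed. FADS2 was higher in dKO-19M (0.16 ± 0.0489, FDR = 0.00962, and 0.103 without dKO-19 vehicle replicate 3), as was ACACB (0.27 ± 0.0793, FDR = 0.00509, and 0.0686 without dKO-19M vehicle replicate 3). ELOVL7 was higher in dKO-8M (0.21 ± 0.0647, FDR = 0.00957, and 0.067 without dKO-8 vehicle replicate 2) and lower in dKO-19M (-0.23 ± 0.0636, FDR = 0.00312). ACLY was higher in dKO-8M (0.15, FDR = 0.00972). FADS1, FADS2 and ELOVL7 differed in sign between the pairs. Replicate 1 of dKO-19M vehicle, which stood apart, was the lowest of its group for FASN (2041 against 2328 and 2343 CPM), ACACA (265 against 346.9 and 334 CPM) and SCD (3262 against 3577 and 3551 CPM). Without it ELOVL6 was called in the CDK19 pair (0.60), as it was with library size as the only scaling (0.61), and ACACA moved from -0.20 ± 0.0491 (FDR = 0.000973) to -0.10 (FDR = 0.0546).

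The levels of FASN in the dKO lines were above those of the other lines in every library, at 2014 CPM or more against at most 1829 CPM. FADS1 separated the rescued lines, with 361.5, 369.8 and 354.6 CPM in vehicle-treated dKO-19 and 177.6, 182 and 184.9 CPM in dKO-8, values on either side of Rv1-WT in FBS (327.4, 343.4 and 334 CPM) and Rv1-WT in CSS (226.7, 222.2 and 235 CPM). These lines were not tested against each other.

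Other genes of lipid metabolism were read from 5 fixed lists of 64 genes, of which 62 had enough counts. In vehicle-treated Rv1-WT, CSS lowered 14 of the 62 and raised 0, beside 6 and 0 of the 10 members and 10.9% of all genes called in either direction. The 14 included 4 of 14 in the SREBP pathway list (SREBF1 and INSIG1 among them), 3 of 10 genes of acetyl-CoA and NADPH supply (ACSS2 and SLC25A1 among them), 4 of 10 other elongation and desaturation enzymes (ELOVL4, SCD5, HACD3 and TECR), 3 of 15 genes of acyl-CoA activation and storage (ACSL4, DGAT2 and PLIN3) and 0 of 13 genes of fatty acid oxidation. INSIG1, which retains the SREBP complex in the endoplasmic reticulum and is itself an SREBP target, fell from 551.7 ± 4.6 to 165.5 ± 5.37 CPM (-1.74 ± 0.11 SE, FDR = 3.05e-15). ACSS2, which makes acetyl-CoA from acetate, fell from 118.8 ± 3.35 to 38.8 ± 1.61 CPM (-1.62 ± 0.124, FDR = 4.97e-13), and SREBF1, the gene of the main SREBP of fatty acid synthesis, from 455.5 ± 12.7 to 299.7 ± 18.5 CPM (-0.60 ± 0.0701, FDR = 2.71e-09). SREBF2 was lower by less (-0.35 ± 0.0496, FDR = 3.61e-08). Among the other called genes with the largest changes of their lists, SCD5 fell to 0.625 from 1.65 CPM (-1.41 ± 0.298, FDR = 7.36e-05) and ACSL4 to 9.42 from 20.7 CPM (-1.14 ± 0.152, FDR = 3.99e-08). In vehicle-treated Rv1-Luc, where 1.49% of all genes were called, CSS lowered 1 of the 62, ACADL, an acyl-CoA dehydrogenase (-1.02 ± 0.056, FDR = 6.02e-22), and INSIG1 (0.25, FDR = 0.116) and SREBF1 (0.16, FDR = 0.116) did not pass. Under SNX631, CSS lowered 8 of the 62 in Rv1-WT (7.83% of all genes were called) and 1, HACD2, in Rv1-Luc (1.51%).

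Under SNX631 the same lists held 2 calls of 62 in Rv1-WT in FBS (2.39% of all genes were called), 3 in Rv1-WT in CSS (4.23%), 6 in Rv1-Luc in FBS (3.67%), 3 in Rv1-Luc in CSS (4.06%), 0 in dKO-8 (1.71%), 3 in dKO-19 (3.41%) and 0 in dKO-8M (0.015%) and dKO-19M (0.09%). INSIG1 fell in Rv1-WT in FBS (551.7 ± 4.6 to 343.1 ± 19.9 CPM, -0.69 ± 0.106, FDR = 1.03e-05), Rv1-Luc in CSS (-0.83 ± 0.105, FDR = 1.48e-07) and dKO-19 (461.1 ± 11 to 272.8 ± 3.57 CPM, -0.76 ± 0.105, FDR = 1.02e-06). In these settings FASN and ACLY were lower at an FDR under 0.05 without being called. It was not called in dKO-8 (-0.20, FDR = 0.236), in which FASN and ACLY did not pass either. INSIG1 was lower in Rv1-Luc in FBS without being called (-0.47 ± 0.104, FDR = 0.000965). FASN (FDR = 0.492) and ACLY (FDR = 0.314) did not pass there, so at an FDR under 0.05 the settings of INSIG1 and these genes differ. SREBF1 was lower in dKO-19 (-0.42 ± 0.0693, FDR = 1.17e-05) and in Rv1-Luc in CSS (-0.31 ± 0.0691, FDR = 0.000873) and in Rv1-WT in FBS (-0.20 ± 0.0696, FDR = 0.0451), and higher in Rv1-WT in CSS (0.23 ± 0.0702, FDR = 0.0126). SREBF2 was lower in dKO-8 (-0.22 ± 0.0489, FDR = 0.000838), where FASN and ACLY did not pass. It was also lower in Rv1-WT in FBS (-0.21, FDR = 0.0013) and in dKO-19 (-0.29, FDR = 4.02e-06). In Rv1-Luc SREBF2 was lower in CSS (-0.34, FDR = 1.64e-07) and in FBS (-0.13, FDR = 0.0482). It did not pass in Rv1-WT in CSS (0.02, FDR = 0.807). ACSS2 rose in Rv1-WT in CSS, from 38.8 ± 1.61 to 59.2 ± 5.92 CPM (0.61 ± 0.13, FDR = 0.000457), the setting in which SCD was higher. ACSS2 was also higher in Rv1-Luc in FBS (0.30 ± 0.105, FDR = 0.041), where SCD did not pass (FDR = 0.924). It was lower in Rv1-Luc in CSS (-0.32 ± 0.106, FDR = 0.0247) and in dKO-19 (-0.29 ± 0.103, FDR = 0.0434). ACSS2 did not pass in Rv1-WT in FBS (-0.00306, FDR = 0.992), dKO-8 (0.23, FDR = 0.143), dKO-8M (-0.35, FDR = 0.139) or dKO-19M (-0.29, FDR = 0.135). The other enzymes with large calls were ACSL5, an acyl-CoA synthetase near the lower limit of detection (0.505 to 1.81 CPM in Rv1-WT in FBS, 1.81 ± 0.383, FDR = 0.000361), SCD5 in Rv1-WT in CSS (1.03 ± 0.307, FDR = 0.0086) and ACADL in Rv1-Luc in FBS (-0.79 ± 0.0549, FDR = 4.36e-18). ACSL5 and SCD5 are low in all of these groups.

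Between kinase-dead and active lines under vehicle, 4 of 62 were called for CDK8, where 7.03% of all genes were called, and 6 for CDK19, where 7.6% were. HACD2, the dehydratase that acts in each elongation cycle with the ELOVL enzymes, was higher in dKO-8M (351.5 against 179.9 CPM, 0.97 ± 0.0439, FDR = 3.05e-26), and SLC25A20, the carnitine carrier, was lower in dKO-19M (11.9 against 18.5 CPM, -0.64 ± 0.0753, FDR = 3.43e-10). ACSL5 had the largest call of all in dKO-19M (2.75 ± 0.662, FDR = 0.000736), at the very low levels of 0.454 against 0.0617 CPM. In Rv1-Luc against Rv1-WT, 9 of 62 were called, 4 higher and 5 lower, where 17.8% of all genes were called.

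The members did not vary as 1 block. Over the 16 group means of log2 CPM, which share lines and serum, FASN, ACLY and ACACA went together (Pearson r = 0.934 for FASN with ACLY, 0.928 for FASN with ACACA and 0.892 for ACLY with ACACA). FASN had r = 0.362 with SCD, 0.27 with ELOVL6, -0.0584 with FADS1 and -0.154 with FADS2. SCD was most like ELOVL7 (0.672) and ELOVL5 (0.61), and ACACB had its strongest relation with FADS1, a negative one (-0.529). Of 11490 genes with a mean of at least 5 CPM, those most like FASN included C15orf39 (0.97) and DSCC1 (0.967). The most like SCD were NGRN (0.896), TMEM192 (0.867) and CHP1 (0.854). FADS1 was matched by 3 genes of mitochondrial complex I or its assembly, NDUFAF3 (0.907), NDUFS6 (0.867) and NDUFS4 (0.863), and ELOVL7 by SLC39A10 (0.838), CHRNA5 (0.792) and TFRC (0.785). With 16 means from 6 related lines, these values describe likeness of profile only, and the higher level of FASN in the dKO lines is part of its profile.

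**Figure D4:**
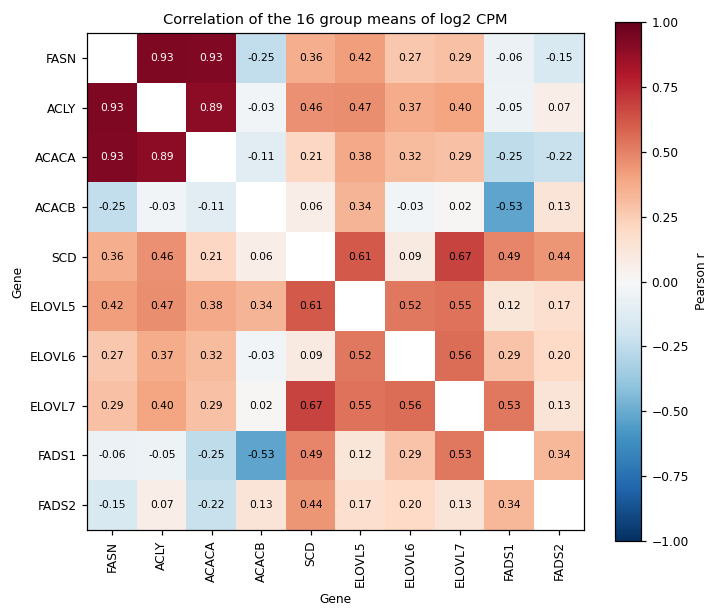
Pearson correlation (colour and number) between each pair of the 10 enzymes (both axes) over the 16 group means of log2 CPM; the diagonal is left blank. FASN, ACLY and ACACA form a block of 0.89 to 0.93, while FASN with FADS2 is at -0.15.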

How the data were processed

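RNA-Seq was deposited as 1 table of 48 libraries. The submitters' processing notes name FastQC, cutadapt 2.8, STAR 2.7.2b, featureCounts and Subread 2.0.3, with the builds GRCh38.p13 and GRCm39. Their annotation release and strand setting are not given in the sources used here. The deposited values are expected counts per gene, since 18.4% of the nonzero values are fractional. They were rounded, and genes were kept by filterByExpr (minimum count 10, minimum total 15), leaving 20009 of 61815. Library totals of 13.2 to 31.5 M counts limit the precision, and intervals and tests cover the spread between libraries. Counts were scaled by TMM and fitted in edgeR 4.0.16 (R 4.3.3; robust glmQLFit, glmQLFTest, two-sided, Benjamini-Hochberg FDR), with a mean for each of the 16 groups and no covariate. A gene was called at an FDR under 0.01 and a fold change over 1.5. CPM are on the TMM scale, and RPKM used exon lengths from GENCODE 29. Replicate numbers did not pair the samples. The code was tested on simulated data. Alternatives were DESeq2 1.42.0, library-size scaling, no filter, other limits, fewer libraries, a replicate block and thinned counts. All 10 members are named; of the lipid lists, SREBF1, SREBF2, INSIG1, ACSS2 and the called gene with the largest change of each list in each kind of comparison. Some genes that these rules or the marker lists name are not reported here. The members (by gene symbol) and the lists were chosen with earlier results of these data known.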

Additional observations from a re-analysis of the deposited data

Results flagged for a closer look

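For 8 results, differences between groups passed the test of the difference itself at an FDR under 0.01 and over 1.5-fold, and they stand here because the same treatment gave different effects in 2 lines. The effect of CSS under vehicle in Rv1-Luc minus that in Rv1-WT was 1.052 on the log2 scale for ELOVL6, 0.9962 for FADS2, 0.9416 for ACLY, 0.8379 for SCD, 0.8289 for FASN and 0.6166 for FADS1. The effect of SNX631 on ELOVL6 was larger by 0.6778 in dKO-8 than in dKO-8M and by 0.5983 in dKO-19 than in dKO-19M. The first 6 share the same 12 libraries, of which Rv1-Luc FBS vehicle replicate 1 stood furthest from its replicates, and its part in these differences was tested only by leaving it out.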

How the results depend on the processing

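Of 21 calls of a member in a comparison, all 21 kept their direction and their call with DESeq2, with no filter on low counts, with counts thinned to the smallest library and with the replicate number as a block. The replicate block left 1 call under SNX631 in the active settings, 9 on androgen depletion and 8 in the differences of effects, as without it, and same-numbered libraries did not deviate together (45 correlations of -0.091 to 0.157, 2 of them over 0.1). Library size as the only scaling removed 1 call and added 1, fits of only the groups compared removed 2, and leaving out 1 library removed 2 and added 2. No sign changed among the results past an FDR of 0.05, and 18 of them lost that limit under at least 1 of these alternatives. With an FDR under 0.05 and no fold limit the members passing were 30 under SNX631 in the active settings, 1 in the kinase-dead lines, 22 on androgen depletion, 14 between kinase-dead and active lines, 7 between Rv1-Luc and Rv1-WT and 27 in the differences of effects. A test against a 1.5-fold change (glmTreat) removed 11 of the 21 calls, since it asks for a change significantly beyond 1.5-fold. It left 0 under SNX631, 1 between Rv1-Luc and Rv1-WT and 3 in the differences of effects. Between kinase-dead and active lines, library-size scaling gave 1 call where there was 0, and leaving out 1 library gave 0 to 1. Of 119 results not past an FDR of 0.05, 29 changed sign under some alternative. The cause of these changes was not tested. With counts thinned to the smallest library, 1 result lost an FDR of 0.05, FADS2 under SNX631 in dKO-19M (0.0269 to 0.106).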
